A study of Arabidopsis thaliana with 8 samples.

Results

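Transcript levels in young inflorescences of the Arabidopsis thaliana mutant ag-10 were compared with those of Ler, the Landsberg erecta wild type. All listed genes were taken, 19853 in number, in 2 ag-10 libraries and 2 Ler libraries out of 8 libraries in the series. The other 4 libraries came from fhy3-68 and from the ag-10 fhy3-68 double mutant, with 2 each, and served to estimate the spread between libraries and to show where a difference seen in ag-10 was also present. The inflorescences carried flowers up to stage 8, and the series calls the 2 libraries of a genotype distinct biological replicates. The labels give neither the lesion nor the background of ag-10, nor the age or growth conditions of the plants.

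AGAMOUS (AG) is a MADS-box transcription factor that specifies stamens and carpels together with the other floral organ identity genes, and that ends the activity of the stem cells in the centre of the flower. It does so in part by switching on KNU, a zinc finger repressor of the stem cell gene WUS, and by acting on WUS itself. In carpels and stamens it is known to activate CRC and SPL. The allele ag-10 is known as a weak one, whose flowers still form stamens and carpels, so the comparison asks what a mild loss of AG function changes in the transcripts of early flowers. The transcript of AG itself was not analysed here, so the genotype labels could not be checked against it.

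The libraries held 12322061 to 16816619 reads in the listed genes, with 14029288 and 12727551 in the ag-10 libraries and 14055142 and 12322061 in the Ler libraries. Levels are given as normalised read counts per 1000000, not divided by gene length, so they are compared between samples and not between genes. A principal component analysis put 60.7% of the variance on its first axis, where ag-10 replicate 1 lay at -44.26, ag-10 replicate 2 at -17.94 and the Ler libraries at -39.44 and -38.26, while the 4 libraries with fhy3-68 lay between 22.63 and 48.75. Markers of young flowers were present in all 4 libraries. AP3, a petal and stamen identity gene, stood at 240.2 and 229.6 in ag-10, against 235 and 229 in Ler, and MS2 (AT3G11980), a gene of the tapetum in young anthers, at 455 and 515 in ag-10, against 596 and 604 in Ler. Of the 11 markers of mature pollen 6 were measured, and their levels summed to 21.2 and 28.5 in ag-10, against 23.2 and 45.4 in Ler. Of the 6 markers of late flowers and nectaries 2 were measured and summed to 56.9 and 54.8 in ag-10, against 69.3 and 65.7 in Ler, and 0 of the 4 seed markers were measured. In such whole-tissue samples, fewer cells of a type and less RNA per cell cannot be told apart.

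A single gene passed the limma test on 8 libraries, and it was higher in ag-10. QQS (AT3G30720), an Arabidopsis orphan gene known to affect the allocation of carbon between starch and protein, stood at 196 and 207 in ag-10, against 0.14 and 0.32 in Ler. Both ag-10 libraries thus lay far above both Ler libraries and close to each other. Its log2 difference was 8.12 (SE 0.25) with a 95% interval of 7.55 to 8.70 (limma, Benjamini-Hochberg adjusted p = 5.42e-05). In reads the contrast was 5490 in ag-10 against 6 in Ler, a ratio of 897 with an exact 95% interval of 412 to 2445 that covers counting error only. QQS was also high in the libraries with fhy3-68, at 164 and 100.3 in ag-10 fhy3-68 and 101 and 136 in fhy3-68. The log2 difference between ag-10 fhy3-68 and fhy3-68 was 0.13, against 8.12 between ag-10 and Ler. The interaction of -8.00 passed the test (limma adjusted p = 0.000776), but it rests on the same Ler libraries as the call above. Ler was therefore the only one of the 4 genotypes in which QQS was almost silent.

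No other gene passed the test, so 1 of 19853 genes (0.00504%) was called. An unadjusted limma p under 0.05 was reached by 357 genes (1.8%), of which 143 (0.72%) were higher and 214 (1.08%) lower in ag-10. The ag-10 libraries both exceeded both Ler libraries for 2996 genes (15.1%) and lay below both for 3445 genes (17.4%). The interval of each gene's difference shows how much room the data leave. The log2 difference lay within 0.2 of 0 for 80.2% of the genes, with quartiles of -0.09 and 0.09 and a median of 0.00. The 95% interval of a gene's difference lay wholly inside a 2-fold change in either direction for 17582 genes (88.6%) and inside a 1.5-fold change for 13172 genes (66.3%). Of the 2271 genes whose interval reached 2-fold or more, 1494 had a mean level under 5. For the 2271 genes these libraries do not exclude a 2-fold change.

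A second gene shared the pattern of QQS at a low level. AT3G43290 had 3.53 and 2.45 normalised reads in ag-10 and 0 reads in both Ler libraries. With 82 reads in ag-10 this is at least 26.8-fold higher, taking 3 reads over both Ler libraries as the floor. Its levels were 2.79 and 3.59 in ag-10 fhy3-68 and 3.92 and 4.18 in fhy3-68. It did not pass the test (limma adjusted p = 0.0603), except with DESeq2 (adjusted p = 0.000525) or a pseudocount of 0.1. The 6 mutant libraries were each compared with both Ler libraries on values with 0.5 added, at a limit set after the values were seen. There, QQS and AT3G43290 were the only listed genes with at least a 4-fold difference in the same direction in every comparison. Without the added 0.5, AT1G58225 also met this limit. It had 0.42 and 8.43 in ag-10, against 0.07 and 0.08 in Ler. In fhy3-68 it had 1.82 and 3.6, and in ag-10 fhy3-68 2.65 and 3.71. Whether other low genes met the limit without the added 0.5 was not tested.

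**Figure D1:**
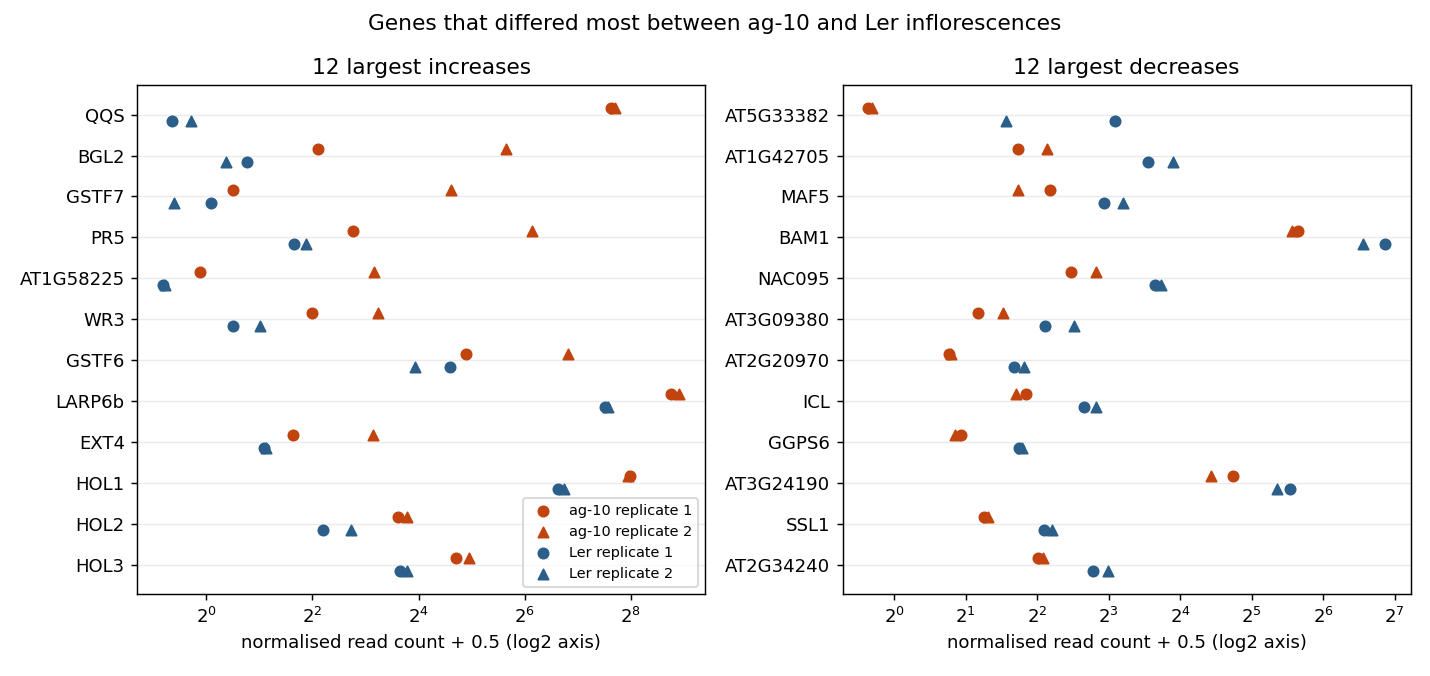
Normalised read counts plus 0.5, on a log2 axis, of the 12 genes with the largest increases (left) and the 12 with the largest decreases (right) among genes with an unadjusted p under 0.05; each point is 1 library, ag-10 in red above Ler in blue, circles for replicate 1 and triangles for replicate 2. QQS is the one gene that passed the test, and BGL2, GSTF7, PR5 and AT1G58225 show the wide gap between the 2 ag-10 libraries.

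Apart from QQS, the 12 largest increases with an unadjusted p under 0.05 fell into 2 kinds. In the first, the ag-10 libraries disagreed and replicate 2 carried the difference. BGL2 (AT3G57260), a beta-1,3-glucanase known as PR2 and induced by salicylic acid, stood at 3.81 and 49.9 in ag-10, against 1.21 and 0.79 in Ler. PR5, a thaumatin-like defence protein, stood at 6.28 and 70.2 in ag-10, against 2.63 and 3.17 in Ler. For both genes ag-10 replicate 1 lay above the Ler libraries, by 1.54 on the log2 scale over the Ler mean for BGL2 and about 2-fold for PR5, and replicate 2 lay higher still, by 3.55 and 3.38 over replicate 1 on the log2 scale. GSTF7, a glutathione S-transferase, stood at 0.92 and 23.9 in ag-10, against 0.57 and 0.16 in Ler, and its relative GSTF6 at 29.1 and 113 in ag-10, against 23.6 and 14.8 in Ler. AT1G58225 had 0.42 and 8.43 in ag-10, against 0.07 and 0.08 in Ler. The extensin gene EXT4 and WR3, a partner protein of high-affinity nitrate transporters, were less uneven. WR3 stood at 3.46 and 8.96 in ag-10, against 0.92 and 1.51 in Ler, a log2 difference of 1.86 (SE 0.39). None of these 7 genes passed the test, with a limma adjusted p of 1 for each. With DESeq2, BGL2, AT1G58225 and WR3 passed, at adjusted p-values of 0.0299, 0.0169 and 0.0096. Taken alone, ag-10 replicate 2 lay 5.08 above the Ler mean on the log2 scale for BGL2 and 4.38 for PR5. As this is 1 library, no p-value is given for it.

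In the second kind, the 2 ag-10 libraries agreed closely and the genes were neighbours. LARP6b, an RNA-binding protein of the La-related family, stood at 432 and 482 in ag-10, against 183 and 189 in Ler, a log2 difference of 1.29 (SE 0.14, limma adjusted p = 0.108). HOL1, a methyltransferase that forms methyl halides, stood at 253 and 246 in ag-10, against 98.8 and 107 in Ler, and its adjacent relatives HOL2 at 11.7 and 13.2 in ag-10, against 4.12 and 6.11 in Ler and HOL3 at 25.7 and 30.5 in ag-10, against 11.99 and 13.2 in Ler. For each of these 4 genes the ag-10 libraries both exceeded both Ler libraries by more than the gap within either genotype. All belong to a single stretch of chromosome 2.

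Along that stretch, 21 listed genes in a row, from 5PTase12 (AT2G43900) to MLO15 (AT2G44110), were higher in ag-10 by at least 0.5 on the log2 scale. Their median log2 difference was 0.97, a ratio of 1.96, with a range of 0.71 to 1.41. The ag-10 libraries both exceeded both Ler libraries for all 21 genes, 14 of the 21 lay within 0.2 of the median, and the median gap between the ag-10 libraries was 0.08. The 15 listed genes on either side had a median of 0.02 over the 30, with a range of -0.26 to 0.73. Elsewhere in the genome the longest runs by the same limit held 5 and 3 genes. The run was picked by these values after they were seen, so its counts are a description and carry no test.

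The genes of the run have no common role that their annotation shows. COS1, an enzyme of riboflavin synthesis, stood at 144 and 124 in ag-10, against 68.97 and 64.6 in Ler. OEP37, a channel of the chloroplast outer envelope, stood at 146 and 142 in ag-10, against 83.3 and 73.2 in Ler, and the inositol phosphate kinase ITPK4 at 79.2 and 83.6 in ag-10, against 43.2 and 42.4 in Ler. The levels in ag-10 were thus near 2 times those in Ler for genes of quite different function. AT2G44060 stood at 324 and 343 in ag-10, against 164 and 172 in Ler, and AT2G44090 at 123 and 127 in ag-10, against 66.1 and 61.6 in Ler. The widest gap between the ag-10 replicates within the run was that of ARL, a regulator of organ growth, which stood at 14.4 and 26.5 in ag-10, against 8.8 and 9.68 in Ler. At the far end MLO15 had 1.20 and 1.46 in ag-10, against 0.21 and 0.16 in Ler.

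Of the 20 genes with the lowest p in the whole comparison, 13 lay in this run. An unadjusted limma p under 0.05 was reached by 19 of the 21, beside 0.72% of all genes in that direction. In ag-10 against Ler, the lowest adjusted p in the run was 0.108 with limma on 8 libraries. Called genes there numbered 0 with this test and 0 with the quasi-likelihood test of edgeR. They numbered 13 with DESeq2, beside 0.116% of all genes in either direction, and 8 with limma on the 4 ag-10 and Ler libraries alone, beside 0.0453%. Reads of 5PTase12 and AT2G44065, among others, may be shared with overlapping gene models. In the library medians over the 21 genes, relative to the Ler mean, the ag-10 libraries lay at 0.95 and 0.96, those of ag-10 fhy3-68 at 0.96 and 0.61, those of fhy3-68 at 0.63 and 0.55 and the Ler libraries at 0.01 and -0.01. With limma on 8 libraries, 16 of the 21 were called in ag-10 fhy3-68 against Ler, beside 859 of 19853 genes. In fhy3-68 against Ler 4 of the 21 were called, beside 605 of 19853. The comparisons with Ler share the Ler libraries. Against fhy3-68, which does not, the double mutant had a median difference of 0.21. The copy number of this stretch was not measured.

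**Figure D2:**
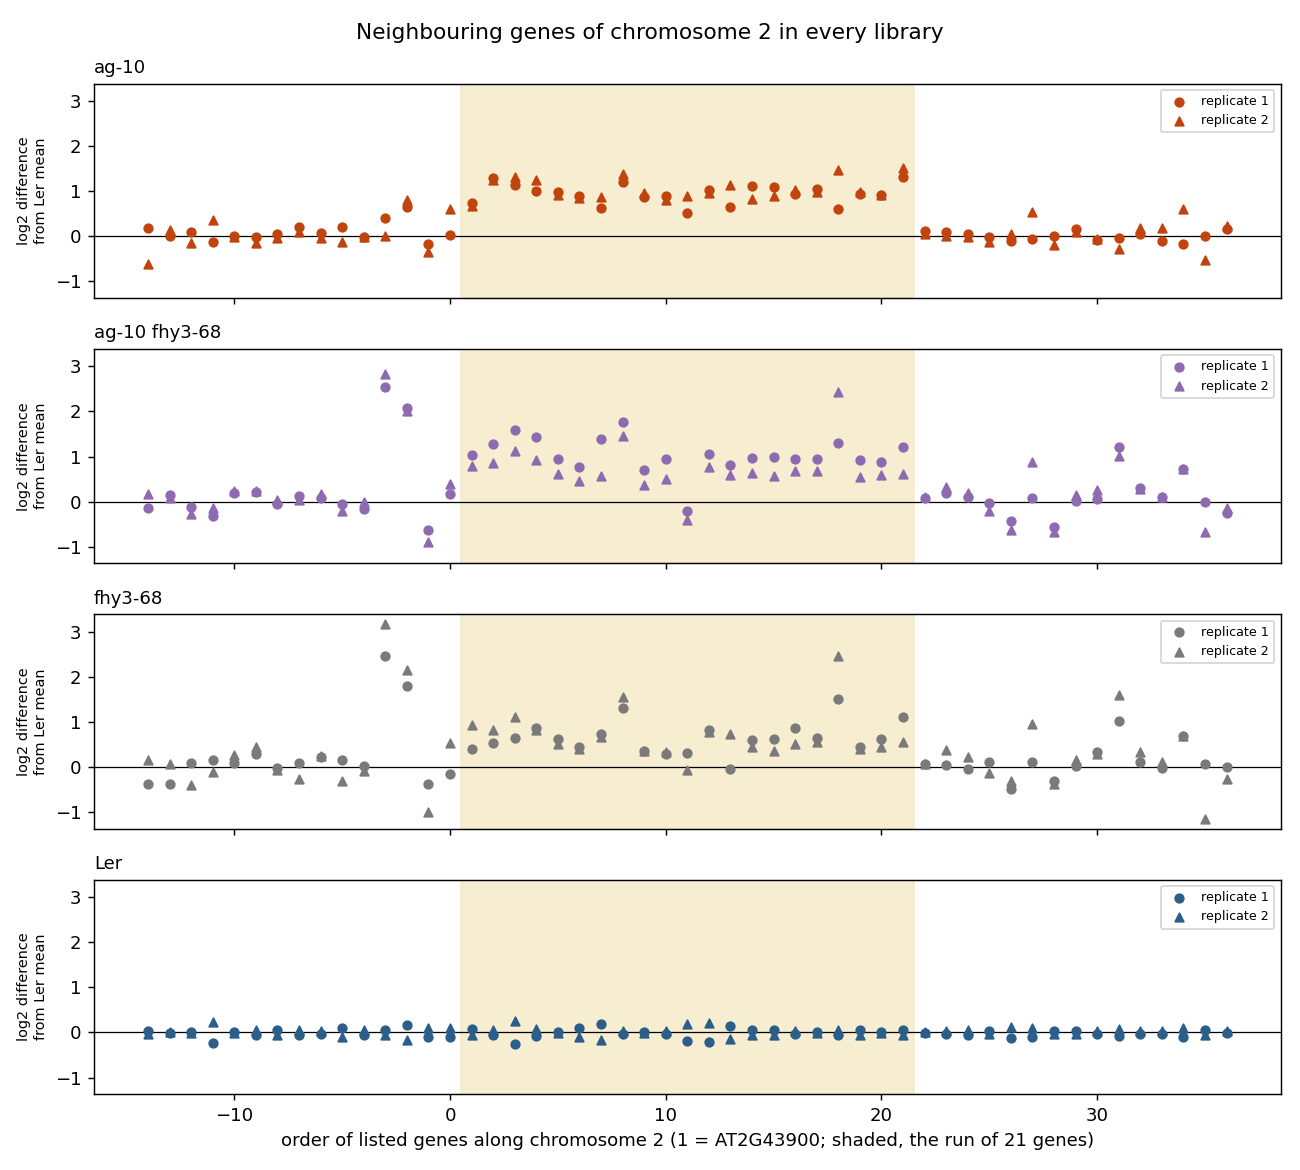
Log2 difference of each library from the Ler mean for the 21 genes of the run on chromosome 2 (shaded) and the 15 listed genes on either side, in gene order; each panel is 1 genotype, with circles for replicate 1 and triangles for replicate 2. In ag-10 all shaded genes lie above 0 in both replicates, around a median difference of 0.97, while the flanking genes have a median of 0.02.

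The largest decreases by the same rule were mostly of low genes and none passed the test. AT5G33382 had 0.28 and 0.31 in ag-10, against 8.02 and 2.46 in Ler, and AT1G42705 had 2.82 and 3.91 in ag-10, against 11.2 and 14.4 in Ler. In both, the ag-10 libraries agreed and lay below each Ler library, but the Ler libraries of AT5G33382 were themselves far apart. BAM1 (AT3G23920), a beta-amylase that breaks down starch, stood at 49.7 and 46.95 in ag-10, against 116 and 93.6 in Ler, a log2 difference of -1.10 (SE 0.22). Its limma adjusted p was 1. In fhy3-68 the same gene stood at 218 and 184, above both Ler libraries and so on the other side of Ler from ag-10. MAF5, a MADS-box relative of the floral repressor FLC, stood at 4.02 and 2.83 in ag-10, against 7.17 and 8.73 in Ler, and the NAC-family gene NAC095 at 5.08 and 6.59 in ag-10, against 12.1 and 12.8 in Ler. ICL, isocitrate lyase of the glyoxylate cycle, stood at 3.1 and 2.76 in ag-10, against 5.82 and 6.59 in Ler. AT3G24190, whose reads may be shared with an overlapping model, had the lowest p of the decreases and stood at 26.2 and 20.99 in ag-10, against 45.9 and 40.4 in Ler (limma adjusted p = 0.421). DESeq2 called BAM1, AT5G33382, AT3G24190 and AT1G42705, at adjusted p-values of 0.000525, 0.00394, 0.0114 and 0.0169. The remaining 5 genes, AT3G09380, AT2G20970, GGPS6, SSL1 and AT2G34240, of which GGPS6 overlaps other models, had log2 differences of -0.97 to -0.84, and in each of them both ag-10 libraries lay below both Ler libraries, as the rule requires.

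Floral organ identity genes lay near their Ler levels. For all 22 measured members the interval lay inside a 2-fold change, beside 88.6% of all genes. With limma, edgeR or DESeq2 0 were called, beside 0.00504%, 0.00504% and 0.116% of all genes, and 0 had an unadjusted limma p under 0.05, beside 1.8%. At these shares a list of this size would hold close to 0 such genes, so the counts of 0 say nothing particular about it. The median log2 difference was 0.04, beside 0.00 for all genes. PI, the partner of AP3 in petals and stamens, stood at 281 and 299 in ag-10, against 275 and 292 in Ler, and AP1, a gene of sepals and petals that AG represses, at 189.9 and 194 in ag-10, against 198 and 195 in Ler. SEP3, a cofactor of the organ identity proteins, stood at 208 and 205 in ag-10, against 183 and 194 in Ler. The ag-10 libraries lay just above both Ler libraries for SEP3, within a bound of 0.31 at the upper end of its interval. SHP1 and SHP2, the closest relatives of AG, had log2 differences of 0.12 (SE 0.16) and -0.17 (SE 0.17), with reads that may be shared with overlapping models.

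Among genes known as direct targets of AG, CRC stood out by its p but not by the adjusted test. CRC, a YABBY transcription factor of carpels and nectaries, stood at 31.2 and 36.7 in ag-10, against 47.4 and 46.6 in Ler. Both ag-10 libraries lay below both Ler libraries. Its log2 difference was -0.47 (SE 0.10), with a 95% interval of -0.71 to -0.23 and an unadjusted limma p of 0.00227 (adjusted p of 1). Its locus overlaps another gene model. SPL, which is needed for the first sporogenous cells of anthers and ovules, stood at 19.5 and 22.8 in ag-10, against 25.3 and 28.2 in Ler, a log2 difference of -0.33 (SE 0.12). Of the 16 measured targets 0 were called with limma, edgeR or DESeq2, which the shares of all genes would also give. An unadjusted p under 0.05 was reached by 2, both lower, beside 1.08% of all genes, and 16 intervals lay inside a 2-fold change, beside 88.6%. The list median was -0.06. The low-level target KNU stood at 1.2 and 0.61 in ag-10, against 0.99 and 1.43 in Ler, with the lower end of its interval at -0.998. That end is on the scale with 0.5 added, so at this level a decrease of more than 2-fold is not excluded. SUP, a zinc finger gene of the stamen and carpel boundary, stood at 1.41 and 1.46 in ag-10, against 1.56 and 1.75 in Ler.

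WUS, which maintains the floral stem cells and is shut off by AG and KNU as the carpels form, stood at 11.8 and 10.2 in ag-10, against 11.8 and 12.1 in Ler. Neither ag-10 library lay above both Ler libraries, and the 95% interval of the log2 difference was -0.46 to 0.23. CLV1, a receptor that restrains WUS, stood at 58.2 and 53.8 in ag-10, against 55.2 and 55.4 in Ler, and STM, a homeobox gene of meristem cells, at 39.4 and 32.4 in ag-10, against 40.5 and 36.02 in Ler. Of 30 measured stem cell regulators 0 were called with limma, edgeR or DESeq2, and 1 had an unadjusted p under 0.05, beside 1.8% of all genes. All 30 intervals lay inside a 2-fold change of the value with 0.5 added, beside 88.6%. For low members such as KNU this does not exclude a 2-fold change in level. The counts of called genes and of genes with such a p are near the shares of all genes. The gene with that p was HAM1, a GRAS-family partner of WUS, at 80.9 and 77.3 in ag-10, against 64.2 and 68.4 in Ler, a log2 difference of 0.25 (SE 0.10). The CLE peptide gene CLV3 was not analysed here. The receptor kinase that shares the symbol BAM1 (AT5G65700) with the beta-amylase stood at 223 and 207 in ag-10, against 228 and 209 in Ler.

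**Figure D3:**
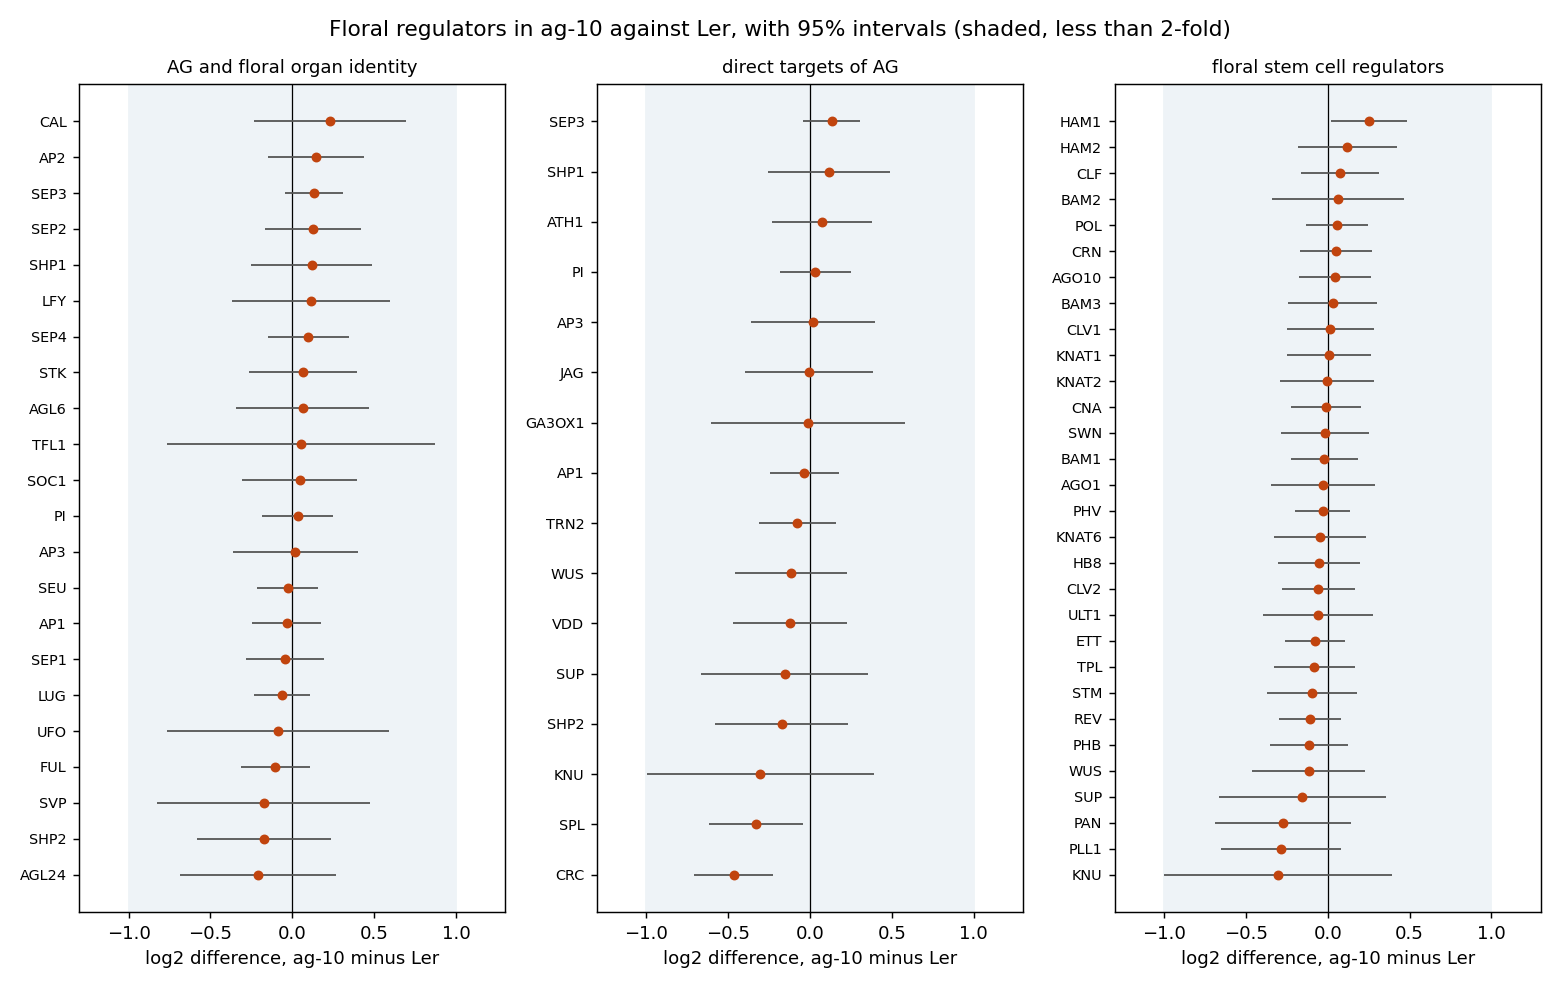
Log2 differences of ag-10 minus Ler (points) with 95% intervals of the limma contrast (lines) for the measured organ identity genes, direct targets of AG and floral stem cell regulators; the shaded band marks less than a 2-fold change. All intervals lie inside the band, and those of CRC, SPL and HAM1 do not include 0.

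Carpel and ovule genes gave a like result, with 25 measured and 0 called by limma, edgeR or DESeq2. All 25 intervals lay inside a 2-fold change of the value with 0.5 added, beside 88.6% of all genes. Of the 25, 20 had a mean level of at least 5. Apart from CRC, NGA4, a gene of style development, was the member with an unadjusted p under 0.05, at 11.6 and 13.5 in ag-10, against 8.94 and 10.5 in Ler, a log2 difference of 0.36 (SE 0.14). SPT, a bHLH gene of carpel margins, stood at 32.2 and 33.5 in ag-10, against 29.5 and 31.4 in Ler. The 21 cell division genes had a median of -0.04 and 21 intervals inside 2-fold. Of the 14 meiosis genes 12 (85.7%) had such an interval, beside 88.6% of all genes, with a median of -0.01. Only 8 of the 14 had a mean level of at least 5. In both lists 0 genes were called by limma, edgeR or DESeq2, beside 0.00504%, 0.00504% and 0.116% of all genes. An unadjusted limma p under 0.05 was reached by 0, beside 1.8%. At these shares lists of this size would hold close to 0 such genes, so the counts of 0 say nothing particular about them. The mitotic cyclin gene CYCB1;1 stood at 35.2 and 40.1 in ag-10, against 40.2 and 37.4 in Ler, and the recombinase gene DMC1 at 48.3 and 45.04 in ag-10, against 50.7 and 52.9 in Ler.

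Anther and tapetum genes had mostly lower means in ag-10, by small amounts that did not pass the test gene by gene. Of 33 measured members 26 had a lower and 7 a higher mean, and both ag-10 libraries lay below both Ler libraries for 21 of them, beside 17.4% of all genes. The median log2 difference was -0.18, with -0.23 for ag-10 replicate 1 and -0.15 for replicate 2. Of the members, 0 were called by limma, edgeR or DESeq2 and 3 had an unadjusted p under 0.05, all lower, beside 1.08% of all genes. CYP703A2, an enzyme of the pollen wall polymer sporopollenin, stood at 109.7 and 115 in ag-10, against 156 and 132 in Ler, a log2 difference of -0.35 (SE 0.14). The tapetum gene ATA7 stood at 187 and 226 in ag-10, against 240.2 and 263 in Ler, and the third was SPL. AMS, a bHLH regulator of the tapetum whose reads may be shared with overlapping models, stood at 193 and 207 in ag-10, against 235 and 219 in Ler. For 32 members the interval lay inside a 2-fold change. ROXY2, a glutaredoxin of early anthers, was the exception and lay the other way, at 4.02 and 4.14 in ag-10, against 2.48 and 2.94 in Ler. The summed level of the list was 4817 and 4903 in ag-10, against 5949 and 5438 in Ler. Both measured late flower markers were also lower in ag-10, with CWINV4, a nectary invertase, at 24.97 and 24.1 in ag-10, against 30.9 and 30.9 in Ler. The share that flower age had in these differences was not tested. Among the mature pollen markers, VGDH1 was at 0 in ag-10 replicate 1 and in Ler replicate 1.

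Lists of stress and environmental response varied more between replicates than between genotypes. The touch, cold and wounding list, which holds genes induced within minutes by handling, had library medians of -0.87 and 0.79 in the ag-10 replicates, against 0.57 and -0.57 in the Ler replicates, relative to the Ler mean. Its 22 members included 1 interval inside a 2-fold change, so neither a change nor its absence was shown. WRKY40 stood at 0.78 and 11.4 in ag-10, against 8.16 and 1.98 in Ler. TCH3, a calmodulin-like touch gene, stood at 13.9 and 95.4 in ag-10, against 33.6 and 17.6 in Ler. In both genes ag-10 replicate 2 and Ler replicate 1 were the high libraries. The heat-shock list had medians of -0.86 and -0.14 in ag-10, against 0.71 and -0.71 in Ler, and the heat-stress factor HSFA2 stood at 1.48 and 28.5 in ag-10, against 55.6 and 2.38 in Ler. The jasmonate list had medians of -0.21 and 0.15 in ag-10, against 0.30 and -0.30 in Ler. JAR1, which conjugates jasmonate to isoleucine, was the jasmonate gene with the lowest p, at 98.8 and 98.3 in ag-10, against 121 and 129.7 in Ler, a log2 difference of -0.34 (SE 0.09).

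Salicylic acid defence genes differed between the ag-10 replicates while the Ler replicates lay close together. The list medians were -0.08 and 0.60 in ag-10, against -0.03 and 0.03 in Ler. Of 23 measured members 0 were called by limma or edgeR and 1, BGL2, by DESeq2, beside 0.116% of all genes. An unadjusted limma p under 0.05 was reached by 3, all higher, beside 0.72%. The third beside BGL2 and PR5 was DLO1, which breaks down salicylic acid, at 0.28 and 1.76 in ag-10, against 0 and 0 in Ler. SARD1, a regulator of salicylic acid synthesis, stood at 3.46 and 12.02 in ag-10, against 3.33 and 4.21 in Ler. Of 25 photosynthesis genes 24 had an interval inside a 2-fold change (96%), beside 88.6% of all genes. The share was lower for the clock genes, at 19 of 24 (79.2%), and for the dark and sugar starvation genes, at 11 of 19 (57.9%). The dark and sugar starvation list had medians of 0.00 and 0.06 in the ag-10 replicates, with intervals of its members reaching -1.97 and 2.77. In these 3 lists, 0 genes were called by limma, edgeR or DESeq2, beside 0.00504%, 0.00504% and 0.116% of all genes. An unadjusted limma p under 0.05 was reached by 0, beside 1.8%. These counts are near the shares of all genes.

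**Figure D4:**
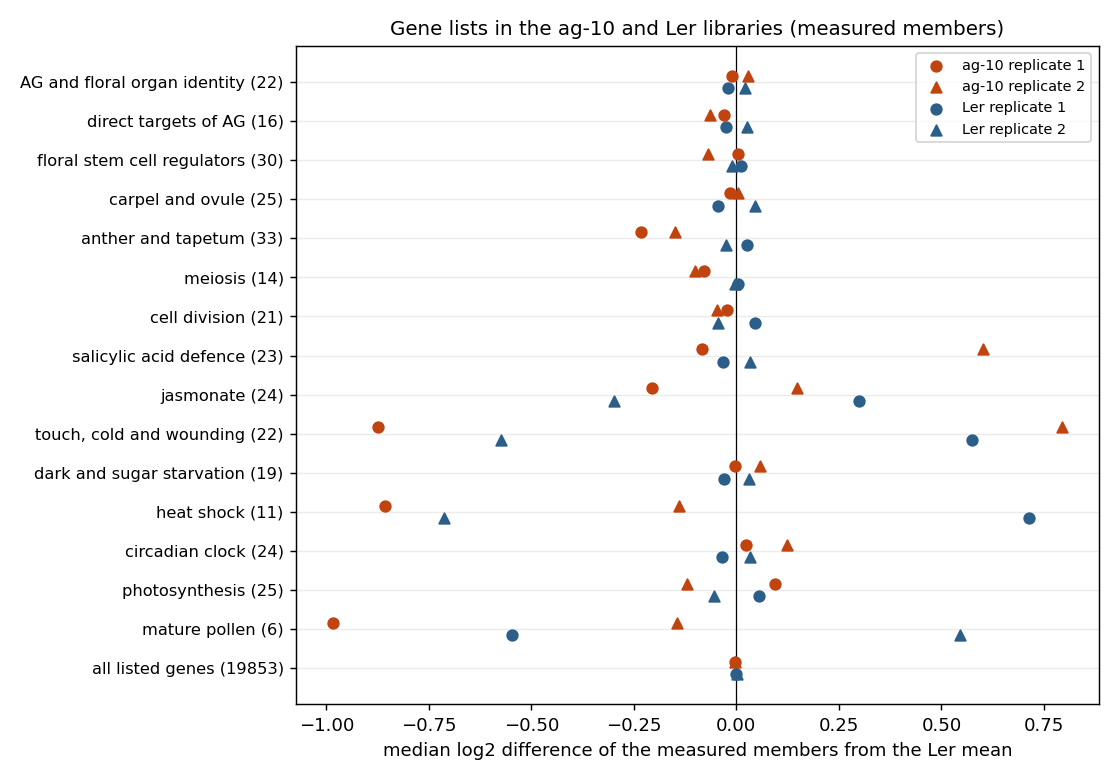
Median log2 difference from the Ler mean over the measured members of each gene list, for each ag-10 library (red, above) and each Ler library (blue, below); circles are replicate 1 and triangles replicate 2, with the number of measured members in parentheses. Floral lists lie near 0 in all 4 libraries, and the touch, cold and wounding list lies at -0.87 and 0.79 in the ag-10 libraries, against 0.57 and -0.57 in the Ler libraries.

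The disagreement between the 2 ag-10 libraries was directed. Among 16061 genes with a mean level of at least 5 over the 8 libraries, 282 (1.76%) were at least 2-fold higher in ag-10 replicate 2 than in replicate 1 and 24 (0.149%) at least 2-fold lower. In ag-10 fhy3-68 the counts were 131 higher and 79 lower in replicate 2, in fhy3-68 215 and 228, and in Ler 20 and 66. The chi-square of the read counts per degree of freedom, which is near 1 for read sampling alone, was 12.1 between the ag-10 replicates, beside 12.1 for ag-10 fhy3-68, 27.4 for fhy3-68 and 4.66 for Ler. Genes with many reads weigh most in it, among them the ribosomal RNA locus AT3G41768, at 552 and 5172 in ag-10. With 1 library on each side, no test of these counts applies. At the edge of the limit, AT1G49050 lay just inside at a log2 difference of 1 between the replicates, and LpxD2 just outside at 0.996.

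The values that chose the 282 genes also bear on where each replicate lay relative to Ler, so the following counts are a description. Replicate 2 lay above both Ler libraries for 233 of them, and replicate 1 lay below both for 189. In 140 genes replicate 2 was 2-fold or more from the Ler mean and replicate 1 was not, in 54 it was replicate 1 alone, in 18 both and in 70 neither. The median distance from the Ler mean was -0.45 for replicate 1 and 1.06 for replicate 2. For 65 of the 282 genes the Ler replicates also lay 2-fold or more apart.

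The 12 genes furthest higher in ag-10 replicate 2 were GSTF7, HSFA2, RLP23, BG3, ARCK1, CRK15, AT5G10760, BGL2, TAT3, U1.5, PR5 and AT5G52760. RLP23, a receptor-like protein of immunity, stood at 0.78 in replicate 1 and 17.4 in replicate 2 of ag-10, against 0.57 and 0.48 in Ler. BG3, another beta-1,3-glucanase, stood at 0.92 in replicate 1 and 18.8 in replicate 2, against 0.43 and 0.56 in Ler, and the receptor-like kinase CRK15 at 0.78 in replicate 1 and 14.9 in replicate 2, against 0.64 and 1.03 in Ler. Among the ag-10 and Ler libraries, replicate 1 of ag-10 lay close to Ler in these genes and replicate 2 alone was high. Each was also above both Ler libraries in every library with fhy3-68. RLP23, for one, stood at 5.1 and 10.2 in fhy3-68 and at 7.07 and 8.37 in ag-10 fhy3-68. HSFA2 was different. It was low in ag-10 replicate 1 and Ler replicate 2 and high in ag-10 replicate 2 and Ler replicate 1. Reads of RLP23 and ARCK1 may be shared with overlapping models. Of the 282 genes 8 were not annotated as protein-coding, among them the small nuclear RNA U1.5 and the ribosomal RNA locus AT3G41768, which had 552 in replicate 1 and 5172 in replicate 2 of ag-10, against 743 and 2233 in Ler. The level of ribosomal RNA thus differed between replicates of both genotypes, and its part in the other differences was not tested.

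Of the touch, cold and wounding list, 19 of the 21 members with a mean of at least 5 were among the 282, as were 8 of 19 members of the salicylic acid list, beside 1.76% of all genes with such a mean. That mean is over all 8 libraries, and both lists were high in fhy3-68. Relative to the Ler mean, the fhy3-68 library medians were 2.35 and 2.23 for touch and 1.11 and 1.18 for salicylic acid. CBP60G of the salicylic acid list reached the mean only through the libraries with fhy3-68. The shares may be raised by this and are a description. The touch list summed to 234 in ag-10 replicate 1 and 788 in replicate 2, against 651 and 327 in the Ler replicates. For the salicylic acid list the sums were 340.4 and 686 in ag-10, against 391 and 397 in Ler. The 2 libraries with the higher touch sums, ag-10 replicate 2 and Ler replicate 1, thus differed in their salicylic acid sums. No member with a mean of at least 5 of the organ identity, AG target, stem cell, carpel, anther, meiosis or cell division lists lay 2-fold apart between the ag-10 replicates.

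Genes lower in ag-10 replicate 2 were of other kinds. By size they were CYP79F1, DOT1, MAM1, LHY, FLA9, ELIP2, FTM1, DFR, ELIP1, IMD1, FMO GS-OX1 and FH3. CYP79F1, MAM1, IMD1 and FMO GS-OX1 act in the synthesis of methionine-derived glucosinolates, the sulfur-rich defence compounds of this plant family, a grouping made after their names were seen. CYP79F1 stood at 16.1 in replicate 1 and 4.21 in replicate 2 of ag-10, against 18.2 and 10.3 in Ler, and MAM1 at 10.3 in replicate 1 and 2.99 in replicate 2, against 9.37 and 6.66 in Ler. For both genes Ler replicate 2 was also the lower one of its pair. ELIP1 and ELIP2, early light-induced proteins of chloroplasts, and the anthocyanin enzyme DFR had the same order in both genotypes, with DFR at 19.1 in replicate 1 and 7.97 in replicate 2 of ag-10, against 12.9 and 5.87 in Ler. Replicate 2 of ag-10 lay below both Ler libraries for 21 of the 24 genes. FH3, a formin gene, was low in both ag-10 libraries, at 24.6 and 10.7 in ag-10, against 99.2 and 47.2 in Ler, and did not pass the test (limma adjusted p of 1).

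Of the clock list, 2 of the 21 members with a mean of at least 5 were at least 2-fold higher in ag-10 replicate 2 than in replicate 1 and 1 was at least 2-fold lower, and the list median of replicate 2 was 0.12. The genes named here are a few of its 24 measured members and carry no statement about the clock as a whole. The morning gene LHY stood at 152 in replicate 1 and 57.1 in replicate 2 of ag-10, against 141 and 117 in Ler. PRR5, which peaks later in the day, stood at 5.78 in replicate 1 and 21.5 in replicate 2, against 5.68 and 5.71 in Ler, and FKF1, an evening photoreceptor, at 1.48 in replicate 1 and 3.68 in replicate 2, against 1.28 and 1.27 in Ler. For LHY, PRR5 and FKF1 ag-10 replicate 1 lay within or close to the Ler values and replicate 2 apart. GI, a clock gene of the late day, stood at 53.4 in replicate 1 and 83.02 in replicate 2, against 48.8 and 52.5 in Ler, and the clock-controlled RNA-binding gene GRP7 at 315 in replicate 1 and 784 in replicate 2, against 311 and 365 in Ler. CCA1, the partner of LHY, and RVE8 were looked up after these values were seen. CCA1 stood at 74.3 in replicate 1 and 42.7 in replicate 2, against 68.8 and 66.2 in Ler, and RVE8 at 51.1 in replicate 1 and 29.4 in replicate 2, against 47.6 and 42.5 in Ler. The labels give no time of harvest.

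**Figure D5:**
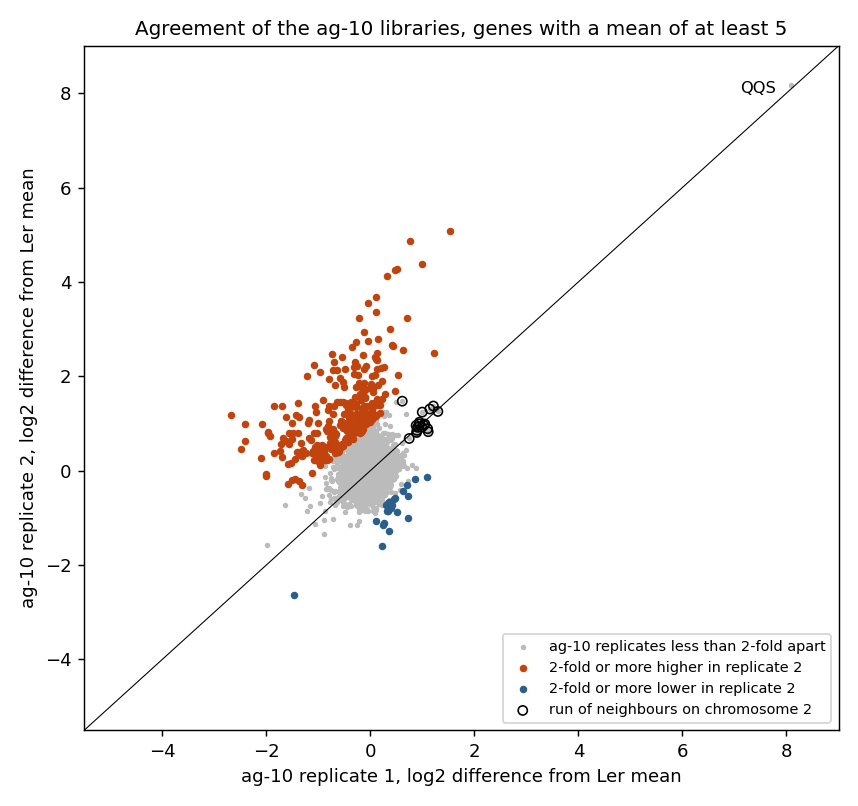
Log2 difference from the Ler mean in ag-10 replicate 2 against that in ag-10 replicate 1 for 16061 genes with a mean of at least 5; coloured points lie 2-fold or more apart between the replicates and open circles are genes of the chromosome 2 run. The 282 genes higher in replicate 2 spread away from the diagonal, while QQS and most genes of the run lie on it.

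Across the 16061 genes, the difference between ag-10 replicates 2 and 1 was compared with the difference between fhy3-68 and Ler, which uses no ag-10 library. Pearson's r was 0.53 and Spearman's rho 0.27. Genes are not independent replicates, and the values share the normalisation, so these are descriptions. The same replicate difference had an r of 0.01 and a rho of 0.22 with the difference between the Ler replicates, and an r of 0.21 and a rho of 0.27 with that between the fhy3-68 replicates. The rho was thus about as high with the fhy3-68 replicate difference as with the difference between fhy3-68 and Ler. The limit of a mean of at least 5 was taken over all 8 libraries. High levels in fhy3-68 thus helped some of the 282 genes to pass it. CBP60G, at 0.42 and 3.83 in ag-10 and 0.14 and 0.24 in Ler, passed only through the libraries with fhy3-68. The counts and medians that follow may be raised by this and are a description. Of the 282 genes, 253 (89.7%) were higher in both fhy3-68 libraries than in both Ler libraries, beside 26% of the 16061 genes. Their median log2 difference there was 1.82, beside -0.02 for all 16061 genes. Called higher in fhy3-68 by limma were 26 of the 282 (9.22%), beside 2.43% of the 16061 genes, and 0 were called lower, beside 0.897%. The 26 genes made up 6.65% of the 391 genes called higher there. WRKY40 stood at 11.4 in ag-10 replicate 2, against 55.8 and 85.7 in fhy3-68, and PR5 at 70.2 in ag-10 replicate 2, against 20.4 and 21.1 in fhy3-68.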

How the data were processed

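Genotypes and replicate numbers were taken from the library titles. The authors deposited a normalised signal per gene and library, reads divided by a size factor and put on a scale of 1000000. This was read from the values, since after division by the value of 1 read (0.0705 and 0.0766 in ag-10, 0.0710 and 0.0793 in Ler) 100% lay within 0.1 of a whole read. Per the submitters' processing notes, the tools were TopHat2 2.0.14, CASAVA 1.8, edgeR 3.10.0 and HTSeq 0.6.1p1, with no role stated. Neither the genome build nor strandedness is given in the sources used here. In each listed gene 2 or more libraries reached a value of 1.

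Differences are log2(value + 0.5), ag-10 minus Ler, which understates the change of low genes. They were tested two-sided with limma 3.58.1 (R 4.3.3) with an intensity trend, 1 coefficient per genotype over 8 libraries, 4 residual and 3.41 prior degrees of freedom, and Benjamini-Hochberg adjustment over 19853 genes at 0.05. The script was tested on simulated data. Alternatives were edgeR 4.0.16 and DESeq2 1.42.0 on the recovered reads, the 4 ag-10 and Ler libraries alone, other pseudocounts, filters and scaling, a replicate block and each library left out. The limma p-values on 8 libraries rest on the spread between 2 libraries per genotype. That spread is pooled over all genotypes and moderated across genes, so it is not that of ag-10 and Ler alone.

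Named are the called genes, the 12 largest increases and decreases among genes with an unadjusted p under 0.05, a mean of at least 2 over the ag-10 and Ler libraries and no overlap between the genotypes, the 12 genes furthest apart each way between the ag-10 replicates at a mean of at least 5, and members of the lists. Those chosen otherwise are said to be so. The comparison, the lists and the rules were chosen with earlier results of these data known. The 18 lists had 356 entries, of which 321 were measured. RefSeq (TAIR10.1) supplied names, gene order and overlaps for 19811 genes. The search for runs of neighbouring genes, the 4-fold limit over all mutant libraries, the 1.5-fold limit and the position of replicates relative to Ler were added after the data were seen.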

Additional observations from a re-analysis of the deposited data

Results flagged for a closer look

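QQS was flagged because its difference between genotypes with and without ag-10 was not the same with fhy3-68 as without it. The log2 difference was 0.13 for ag-10 fhy3-68 against fhy3-68 and 8.12 for ag-10 against Ler. The interaction of -8.00 was called by limma at a Benjamini-Hochberg adjusted p of 0.000776. It rests on the same Ler libraries as the call of QQS in ag-10 against Ler. In ag-10 fhy3-68 the levels were 164 and 100.3, against 101 and 136 in fhy3-68. In ag-10 they were 196 and 207, against 0.14 and 0.32 in Ler. Thus all 6 mutant libraries lay above both Ler libraries. No explanation was tested.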

How the results depend on the processing

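The call of QQS was kept under every alternative run. The count of genes called in ag-10 against Ler was 1 under edgeR, a pseudocount of 1, a mean of at least 2, equal library totals and the replicate block. It was 23 with DESeq2, of which 18 were higher, 9 with limma on the 4 ag-10 and Ler libraries and 2 with a pseudocount of 0.1. Without ag-10 replicate 1, the genotype was left with replicate 2 alone. There BGL2, PR5 and AT5G10760 lay 5.08, 4.38 and 3.67 above the Ler mean on the log2 scale. Genes called in the interaction numbered 1 as a rule, 3 with DESeq2 and 1 to 3 with a library left out. The cause of these shifts was not tested. Genes whose interval lay inside a 2-fold change numbered 16734 to 18431 over the pseudocounts and 15732 to 17982 with a library left out. The 306 genes 2-fold apart between the ag-10 replicates became 280 to 326 with other pseudocounts, 423 and 219 at a mean of at least 2 and 10, and 314 with equal totals. Of 383 alternative values of the 24 genes with the largest differences, 0 reversed and 14 passed the test that had not. With the replicate number as a block the count of calls stayed at 1 and 546 genes reached an unadjusted p under 0.05. The labels give the numbers no shared plant or day. The ag-10 deviations correlated across genes at 0.01 with those of Ler (rho 0.22), 0.21 with fhy3-68 and 0.35 with ag-10 fhy3-68, so pairing was not settled. The block changed no call. List medians over the alternatives ranged from -0.87 to 0.79 for the touch list and -0.08 to 0.60 for the salicylic acid list, and from -0.23 to -0.13 for the anther list. With 2 libraries per genotype, low genes are limited by depth.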

Other observations

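Shorter runs of neighbouring genes with a log2 difference of at least 0.5 were few, and their genes had wide spreads. The run of 5 lower genes on chromosome 3, from AT3G28780 to AT3G28840, had a median of -0.94. AT3G28830 stood at 6.7 and 17.2 in ag-10, against 14.3 and 27.8 in Ler, and AT3G28790 at 5.92 and 15.01 in ag-10, against 11.1 and 25.9 in Ler. In both genes the libraries of the 2 genotypes overlapped, with replicate 2 the higher one in each. A run of 3 lower genes on chromosome 2, from AT2G47030 to AT2G47050, holds the pollen pectin methylesterase genes VGDH1 and VGD1, and VGD1 stood at 2.61 and 11.03 in ag-10, against 6.39 and 22.4 in Ler. Among the runs of 3 higher genes, AT4G23210 to AT4G23240 on chromosome 4 holds receptor-like kinase genes that include CRK15, and AT5G52740 to AT5G52760 lies on chromosome 5. In AT5G52760 the ag-10 replicates stood at 0.78 and 12.2, against 2.34 and 2.06 in Ler.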
